A study of Mus musculus with 2 samples.

Results

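The mesoderm and Wnt response genes described here were 10 genes, T, Eomes, Mixl1, Evx1, Cdx1, Cdx2, Wnt3, Axin2, Lef1 and Sp5, taken from the 26127 probes of RNA-seq libraries from mouse embryonic stem (ES) cells, 1 WT and 1 with the H3.3 G34R mutation. Each was the single probe that carried the gene's name. The genes were chosen by their known roles, with the RPKM values of the same libraries in view, so every difference below between the cell lines is a description and was not tested. Both lines had the strain label 129S1/SvImJ, were below passage 20 and were grown with foetal calf serum, leukaemia inhibitory factor and β-mercaptoethanol. WT cells were unmodified, with both copies of H3f3a and of H3f3b intact. G34R cells carried 1 H3f3a allele in which a minigene encoding H3.3 with arginine in place of glycine 34 was driven by the endogenous H3f3a promoter, beside 1 WT H3f3a allele and intact H3f3b. The mutant line was obtained by gene targeting, Cre excision and selection of clones, whereas the WT line was not, and with 1 library per line the mutation cannot be told apart from the history of a clone or culture.

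The canonical Wnt pathway works through β-catenin. Without a Wnt signal a destruction complex containing Axin and Apc marks β-catenin for degradation, and with a signal β-catenin accumulates and joins TCF/LEF factors at target genes. In the mouse embryo, Wnt3 in the posterior epiblast is needed for the primitive streak, where Eomes, Mixl1, T and Evx1 are switched on and mesoderm and endoderm arise, and Cdx genes pattern the posterior body afterwards. Axin2, Lef1 and Sp5 are widely used as readouts of the pathway. ES cells in serum and LIF are not streak cells, but single cells or colonies in such cultures can begin to express streak genes.

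Values are RPKM, the authors' read density scaled to the length of the merged transcript in kilobases and to the size of the library, with 2 decimals. The number of reads behind an RPKM value was recovered from the steps of short probes, which gave 88.06 M reads in WT cells and 72.47 M in G34R cells. A single read on a transcript of 1 kb then stands for 0.0114 and 0.0138 RPKM. H3f3a, the targeted gene, had 8.17 RPKM in WT against 4.89 RPKM in G34R, a value that does not separate its alleles. The ES cell markers Pou5f1 and Sox2 were high in both libraries, at 194.34 and 73.83 RPKM in WT cells and 189.46 and 75.05 RPKM in G34R cells. Of the 13 ES cell markers listed, 3 were more than 2-fold lower in G34R cells, namely Zfp42, Klf2 and Nanog, with values given below. Intervals below are 95% intervals for counting and rounding error only. They do not hold the spread between cultures or clones, which 1 library per line cannot give.

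The 10 genes did not all move in the same direction. By sign alone 7 had a higher value in G34R cells, and 3, the Wnt readouts Axin2, Lef1 and Sp5, a lower one. For 5 of the 10 the counting interval of the log2 ratio left out 0. Only Eomes and Cdx1 were more than 2-fold higher in G34R cells among the genes with at least 0.25 RPKM in 1 library, and Lef1 was more than 2-fold lower. Axin2 and Sp5 lay within 2-fold. The remaining 5 genes, among them T itself, stayed under 0.25 RPKM in both libraries. That makes 5 of the 10 genes past the filter on low values, with 2 higher and 1 lower, where 5.79% of all 13366 probes past the same filter were more than 2-fold higher and 9.64% more than 2-fold lower. Nothing is read from these shares, since the genes were selected on the same contrast. Cdx1 stood at the filter value in WT cells, and Lef1 and Sp5 passed the filter through WT cells alone. The median of log2 (G34R/WT RPKM) came to -0.08 over the 5 genes that passed and 0.80 over all 10, against -0.0665 over all probes that passed.

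**Figure D1:**
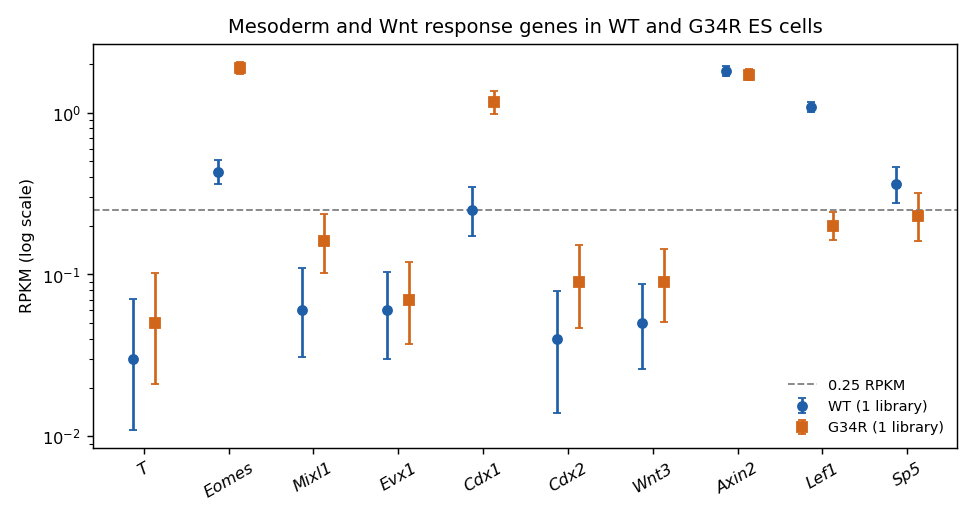
RPKM on a log axis for each of the 10 genes in the WT library (circles) and the G34R library (squares), with 95% counting intervals as bars and the filter of 0.25 RPKM as a dashed line. Eomes and Cdx1 stand apart upwards in G34R cells, Lef1 downwards, and T, Mixl1, Evx1, Cdx2 and Wnt3 lie between 0.03 and 0.16 RPKM in both libraries.

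Of the Wnt readouts, Lef1 stood apart, while the counting intervals of the ratios of Axin2 and Sp5 overlapped. Axin2, which encodes a scaffold of the destruction complex and is induced by the pathway as negative feedback, had 1.81 RPKM in WT (878 reads) against 1.71 RPKM in G34R (682 reads). Its log2 (G34R/WT RPKM) of -0.08 had a counting interval of -0.24 to 0.07, so no difference was detectable and a change of 1.5-fold in either direction lay outside the interval. Axin2 (ENSMUSG00000000142) occupies chr11:108781663-108812097 on the plus strand of mm9, and 51.1% of the probes past the filter had a higher ratio.

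Lef1, the TCF/LEF factor whose own gene is a Wnt target, was lower in G34R cells. It had 1.08 RPKM in WT (823 reads) against 0.20 RPKM in G34R (125 reads). The level in G34R cells was 5.40-fold lower, a log2 ratio of -2.43 (-2.75 to -2.13), and 3.0% of the probes past the filter had a lower one. Lef1 (ENSMUSG00000027985) lies at chr3:130813389-130927274 on the plus strand of mm9. Its merged exons span 8654 bases over 6 annotated transcripts, while the exons of its coding transcripts alone span 3506 bases. On the shorter length the same reads would correspond to 2.67 and 0.49 RPKM. The level of Lef1 beside that of other genes depends on this choice. For the same reads its ratio between the libraries does not. Reads were not split between the coding transcripts and the other exons, so their separate ratios are not known.

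Sp5 encodes a zinc finger factor that acts downstream of the pathway in the streak. It had 0.36 RPKM in WT (67 reads) against 0.23 RPKM in G34R (35 reads). Its log2 ratio was -0.65 with a counting interval of -1.29 to -0.02, which reaches nearly to 0 at one end and past 2-fold lower at the other. Sp5 (ENSMUSG00000075304, chr2:70312980-70315786, plus strand of mm9) has 2 exons and 1 annotated transcript.

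The sequence in front of the genes is shown because β-catenin joins TCF/LEF factors at target genes. RefSeq promoter windows of the GRCm38.p6 build, from 250 bases before to 50 bases after a gene start, were matched by symbol for 8 of the 10 genes. Cdx1 and Mixl1 had no entry. Both strands were searched for 4 words of the TCF/LEF consensus, namely CTTTGAA or CTTTGAT, and likewise CTTTGTA or CTTTGTT, and for the T-box word GGTGTGA. None of these words overlapped another in the windows of the 10 genes. The windows of the 4 printed genes that passed the filter on low values are given 5′ to 3′ on the gene's strand, with matches in capitals. They are chr9:118477939-118478238 for Eomes, chr11:108920099-108920398 for Axin2, chr3:131110047-131110346 for Lef1 and chr2:70474673-70474972 for Sp5, all on the plus strand.
Eomes: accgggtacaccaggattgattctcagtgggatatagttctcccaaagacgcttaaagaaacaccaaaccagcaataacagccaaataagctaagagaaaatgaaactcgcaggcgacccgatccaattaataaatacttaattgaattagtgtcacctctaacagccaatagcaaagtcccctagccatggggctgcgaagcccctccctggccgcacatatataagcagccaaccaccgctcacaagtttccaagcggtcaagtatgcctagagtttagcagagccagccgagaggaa
Axin2: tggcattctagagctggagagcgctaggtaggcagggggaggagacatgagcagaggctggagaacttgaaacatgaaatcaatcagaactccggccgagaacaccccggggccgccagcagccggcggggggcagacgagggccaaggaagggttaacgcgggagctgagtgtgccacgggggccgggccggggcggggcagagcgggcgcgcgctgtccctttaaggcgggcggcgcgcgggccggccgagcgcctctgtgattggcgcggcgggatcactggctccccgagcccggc
Lef1: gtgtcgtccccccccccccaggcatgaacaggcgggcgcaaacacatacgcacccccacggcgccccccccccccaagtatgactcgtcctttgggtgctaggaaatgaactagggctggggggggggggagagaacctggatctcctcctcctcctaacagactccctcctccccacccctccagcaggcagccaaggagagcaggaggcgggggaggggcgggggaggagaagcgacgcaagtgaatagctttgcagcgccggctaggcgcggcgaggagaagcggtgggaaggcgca
Sp5: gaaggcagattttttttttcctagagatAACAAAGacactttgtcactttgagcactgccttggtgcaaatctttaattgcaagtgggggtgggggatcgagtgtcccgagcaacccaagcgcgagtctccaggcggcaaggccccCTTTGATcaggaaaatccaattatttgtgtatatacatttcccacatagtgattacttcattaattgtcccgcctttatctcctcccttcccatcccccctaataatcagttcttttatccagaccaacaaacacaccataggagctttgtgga

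Sp5 held 2 TCF/LEF words, CTTTGAT on the gene's strand 104 bases before the start and CTTTGTT on the opposite strand 222 bases before it. The windows of Axin2, Eomes, Evx1 and Cdx2 held none, and of the 4 Lef1 windows only the one farthest downstream did. Sequence outside the windows was not searched, so words elsewhere at these genes would be missed. T held CTTTGAA on the opposite strand 235 bases before the start, and Wnt3 held CTTTGTT at base 19 after it. In all, 4 of 8 genes had a word in 1 or more windows, and 16.9% of the 32851 windows in the table held one. Lef1 entered with 4 windows, so the gene count and the window share are not on the same footing. GGTGTGA was in none of the windows of the 8 genes and in 3.98% of all windows. The windows also differed in CpG content. Axin2 had 31 CpG, more than 89.4% of windows, against 10 in Eomes and 6 in Sp5, with a median of 7 over the table.

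Among the streak regulators T, Eomes, Mixl1 and Evx1, only Eomes reached 0.25 RPKM, and it did so in both libraries. Eomes, a T-box factor needed for mesoderm and definitive endoderm and also for trophoblast, had 0.43 RPKM in WT (157 reads) against 1.88 RPKM in G34R (566 reads). It was 4.37-fold higher in G34R cells, with a counting interval of 3.62 to 5.31, and 1.2% of the probes past the filter had a higher ratio. In WT cells it came after Axin2 and Lef1, and in G34R cells its level overlapped that of Axin2 at the top. Eomes (ENSMUSG00000032446) spans chr9:118387330-118395250 on the plus strand of mm9.

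T, or Brachyury, the T-box factor that defines the streak and notochord, had 0.03 RPKM in WT against 0.05 RPKM in G34R. These values stand for about 6 and 8 reads, and the log2 ratio of 0.74 had an interval of -1.18 to 2.64. No difference was detectable for T at this depth. T (ENSMUSG00000062327, chr17:8627288-8635361, plus strand of mm9) had the lowest value in both libraries, with an interval that overlapped the gene above it.

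Mixl1, a homeobox factor of the streak, had 0.06 RPKM in WT (12 reads) against 0.16 RPKM in G34R (27 reads), a log2 ratio of 1.42 (0.27 to 2.57). Among the 5 genes under the filter it was the one whose counting interval left out 0. Evx1, a homeobox gene of the posterior streak, had 0.06 and 0.07 RPKM, from 15 reads in each library. Its log2 ratio of 0.22 had an interval of -1.06 to 1.54, too wide to show a difference of less than 2-fold. Mixl1 lies at chr1:182623174-182627165 on the minus strand and Evx1 at chr6:52263492-52268372 on the plus strand. The targeted gene H3f3a, at chr1:182730963-182744074, is among the 3 probes past the filter that follow Mixl1 on the chromosome. Any bearing of the targeting of H3f3a on the Mixl1 value was not tested.

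Wnt3, the ligand that starts the streak, was barely detected. It had 0.05 RPKM in WT (14 reads) against 0.09 RPKM in G34R (20 reads), a log2 ratio of 0.85 (-0.35 to 2.09). Wnt3 lies at chr11:103635464-103679271 on the plus strand. As a fold its interval ran from 0.78 to 4.27, so neither no difference nor a rise of several-fold lay outside it. Any relation of the Wnt3 level to the values of Eomes and Cdx1 was not tested.

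The 2 caudal-type homeobox genes differed in level. Cdx1, a direct Wnt target in the embryo, had 0.25 RPKM in WT (39 reads) against 1.16 RPKM in G34R (147 reads). It was 4.64-fold higher in G34R cells (3.20 to 6.90), a log2 ratio of 2.21, and 1.1% of the probes past the filter had a higher one. Cdx1 (ENSMUSG00000024619) lies at chr18:61178516-61195853 on the minus strand of mm9. Cdx2, which acts in the posterior embryo and in trophectoderm, stayed at 0.04 RPKM in WT (8 reads) against 0.09 RPKM in G34R (15 reads). Its log2 ratio of 1.17 had an interval of -0.26 to 2.92, so neither no difference nor one as large as that of Cdx1 lay outside it. Cdx2 lies at chr5:148112381-148118846 on the minus strand.

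**Figure D2:**
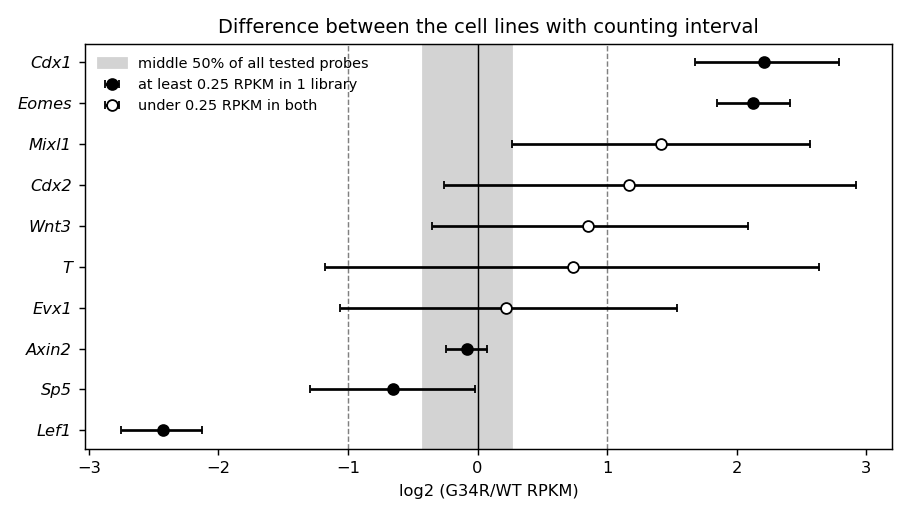
log2 (G34R/WT RPKM) of each gene with its 95% counting interval. Filled points had at least 0.25 RPKM in 1 library and open points did not, the grey band is the middle 50% of all probes past the filter (-0.42 to 0.27) and dashed lines mark 2-fold. Cdx1 and Eomes lie right of 1 and Lef1 left of -1 with their whole intervals.

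The order of the genes changed between the libraries. In WT cells, on merged exon lengths, Axin2 was highest, Lef1 second and Eomes next. On the exons of its coding transcripts alone Lef1 would have 2.67 RPKM in WT and 0.49 RPKM in G34R. Its place in both orders, and its overlaps, therefore depend on the length chosen. The interval of Sp5 overlapped those of Eomes and Cdx1, and Cdx1 lay apart from Mixl1 below it. In G34R cells Eomes and Axin2 overlapped at the top, Cdx1 followed with an interval apart from both its neighbours, and Sp5 and Lef1 overlapped each other and Mixl1. The 5 genes under the filter overlapped the next in line among themselves in both libraries and could not be ranked. Even the highest value, 1.88 RPKM for Eomes in G34R cells, exceeded that of only 67.5% of all probes. Probes in the same range, with a larger value of 1 to 2 RPKM, were outside 2-fold in 20.9% of cases, against 15.4% of all probes past the filter. Levels this low in a bulk library can come from a few cells with much RNA or many with little, and fewer cells of a type cannot be told apart from less RNA per cell.

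**Figure D3:**
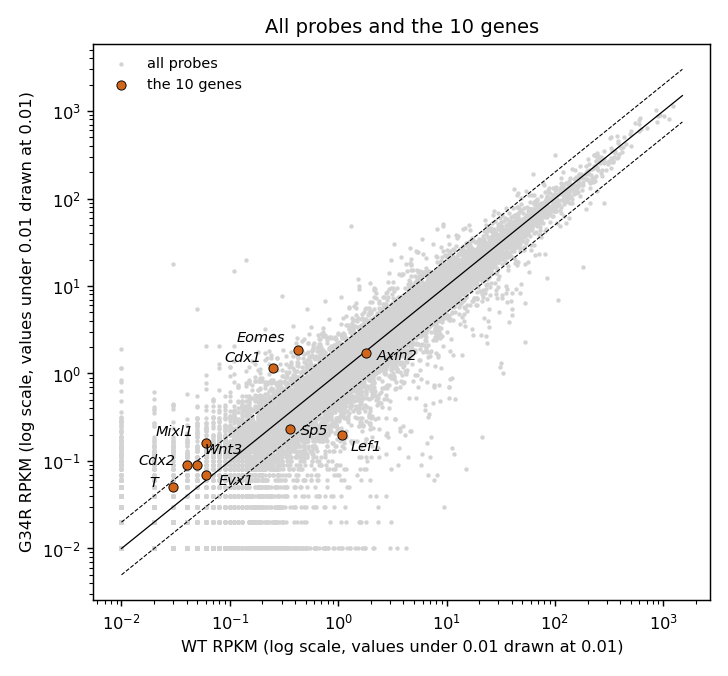
RPKM in WT cells (x axis) against G34R cells (y axis), both on log scales with values under 0.01 drawn at 0.01, for all 26127 probes (grey) and the 10 genes (orange). The solid line is equality and the dashed lines are 2-fold; Eomes and Cdx1 lie above the upper dashed line, as do Mixl1 and Cdx2 at under 0.25 RPKM, Lef1 below the lower one and Axin2 on the diagonal.

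The probes most like the 4 genes that reached 1 RPKM were found by their distance from them in the plane of log2 WT and log2 G34R RPKM, over these 2 libraries. Eomes lay nearest to Fam84b (0.43 and 1.80 RPKM, distance 0.063) and Cmtm3 (0.46 and 1.81 RPKM, distance 0.112). Cdx1 lay nearest to 1810011O10Rik (0.27 and 1.10 RPKM, distance 0.135) and 2010012P19Rik (0.23 and 1.28 RPKM, distance 0.186). For Lef1 the nearest were Slc17a7 (1.02 and 0.21 RPKM, distance 0.108) and Hpca (1.17 and 0.19 RPKM, distance 0.137). Maneal and Rundc1 matched Axin2, at 1.81 and 1.70 RPKM and at 1.81 and 1.73 RPKM. With 2 libraries such likeness is a match of 2 values and no more.

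The 10 genes lie on 9 chromosomes, and the probes beside Eomes, Cdx1, Lef1 and Axin2 are described here. Over all probes past the filter 5.79% were more than 2-fold higher and 9.64% more than 2-fold lower. Nothing is read from counts among so few neighbours. Of the 3 probes past the filter on each side, the 6 around Eomes had a median log2 (G34R/WT RPKM) of 0.10, with 1 of them more than 2-fold higher, Tgfbr2 (0.05 and 0.55 RPKM), which encodes a TGFβ receptor. Around Cdx1 the median was 0.30 and none was more than 2-fold higher, while 2 were more than 2-fold lower, among them its next neighbour Pdgfrb, a growth factor receptor gene (0.47 and 0.06 RPKM). Around Lef1 the median was -0.20, with 1 more than 2-fold higher and none more than 2-fold lower. Around Axin2, itself within 2-fold, the median was -0.70, with none more than 2-fold higher and 2 more than 2-fold lower. Around the remaining genes the medians ran from -0.20 for Sp5 to 0.06 for Cdx2. These neighbours were named after their values were seen.

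Other genes of the streak and early mesoderm, from a list of 25, were mixed in direction, and 14 did not reach 0.25 RPKM. Of the 11 past the filter, 1 was more than 2-fold higher and 3 more than 2-fold lower, with a median log2 ratio of 0.67. Over all probes past the filter 5.79% were more than 2-fold higher and 9.64% more than 2-fold lower. By any amount 44.5% of them were higher and 55.0% lower. These shares belong beside the counts of every list below as well, and nothing is read from any of these counts. Tbx20, a T-box gene of the heart field, was 0.08 RPKM in WT (32 reads) against 2.04 RPKM in G34R (665 reads), a log2 ratio of 4.67 (4.11 to 5.33). The lower genes were Gsc, a homeobox gene of the organiser (0.34 and 0.10 RPKM), Meox1, of the somites (0.38 and 0.14 RPKM), and the Notch ligand Dll1 (1.01 and 0.40 RPKM, log2 ratio -1.34). Tcf15, of the early somites, was well above the others at 10.51 and 18.16 RPKM, within 2-fold. Msgn1, Evx2 and Aplnr were listed at 0 in both libraries, and the mesoderm genes Mesp1 (0.04 and 0.10 RPKM) and Tbx6 (0.06 and 0.22 RPKM) stayed under the filter like T. Genes under the filter went both ways. Isl1 was higher in G34R cells (0.06 and 0.14 RPKM), as were Hes7 and Lhx1 on very few reads. Lower there were Fgf8 (0.21 and 0 RPKM), Kdr (0.14 and 0.06 RPKM), Cyp26a1 (0.13 and 0.03 RPKM) and Cdx4 (0.07 and 0 RPKM). These genes under the filter were named after their values were seen.

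Upstream in the Wnt pathway, most ligands were near absent. Of 21 genes for ligands and their export, 14 did not reach 0.25 RPKM, 2 were more than 2-fold higher and 1 more than 2-fold lower. Wnt7b was the highest ligand in WT cells, with 1.44 RPKM there against 0.54 RPKM in the mutant line, a log2 ratio of -1.42 (-1.68 to -1.15). Wls, the carrier that takes Wnt proteins to the cell surface, was higher in G34R cells (0.22 and 0.76 RPKM, log2 ratio 1.79), as was Wnt11 (0.10 and 0.31 RPKM). Porcn, the enzyme that attaches the lipid of Wnt proteins, was level at 2.30 and 2.39 RPKM.

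Most receptors and transducers of the signal that passed the filter were within 2-fold. Of 24 receptor and R-spondin genes 7 did not reach 0.25 RPKM, and 15 of the 17 that did were within 2-fold, among them the Frizzled genes Fzd5 (16.29 and 17.15 RPKM) and Fzd7 (7.81 and 14.86 RPKM). Ror2, a receptor of the non-canonical branch, was higher in G34R cells (2.37 and 6.42 RPKM, log2 ratio 1.44), and Lgr6, an R-spondin receptor, was lower (0.43 and 0.15 RPKM). All 14 genes of the transducers and destruction complex passed the filter, and 13 were within 2-fold. Ctnnb1, which encodes β-catenin, had 89.69 RPKM in WT against 78.21 RPKM in G34R, and Tnks2, a tankyrase that destabilises Axin, had 23.33 and 26.09 RPKM. The exception was Apc2, a relative of Apc, at the filter value with 0.25 and 0.12 RPKM, and adding 0.01 to each RPKM took it within 2-fold. RNA levels do not report the stability or place of β-catenin protein.

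The TCF/LEF factors were not lower as a family. Within the family Lef1 itself was the only gene more than 2-fold lower, and Tcf7l2 was more than 2-fold higher (0.18 and 0.55 RPKM, log2 ratio 1.61). Tcf7, the factor with the highest RPKM of the family, had 7.70 and 6.46 RPKM, and Tcf7l1, a repressor of target genes in ES cells, had 2.74 and 3.32 RPKM. The partners Tle4 (16.77 and 21.85 RPKM) and Pygo2 (8.71 and 11.39 RPKM) were within 2-fold. In this list of 12, which holds Lef1, 10 passed the filter, with a median log2 ratio of 0.38.

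Other target and feedback genes were mixed in direction. Of the 9 past the filter, 5 had a higher and 4 a lower value in G34R cells, with a median log2 ratio of 0.04, and none was more than 2-fold higher and 2 were more than 2-fold lower. Notum, a secreted enzyme that removes the lipid of Wnt proteins, had 5.69 RPKM in WT (1207 reads) against 1.42 RPKM in G34R (248 reads), 4.01-fold lower, with a log2 interval of -2.21 to -1.80. Tnfrsf19, a receptor gene induced by the pathway, had 1.60 and 0.31 RPKM, a log2 ratio of -2.37 (-2.69 to -2.06). Close to equality were Znrf3, the feedback ubiquitin ligase (1.97 and 2.03 RPKM), and Nkd1 (0.31 and 0.33 RPKM), while Ccnd1 had 21.80 and 15.97 RPKM. The growth regulator Myc had 4.76 and 7.49 RPKM, a log2 ratio of 0.65 (0.54 to 0.77), and Nkd2 and Apcdd1 had log2 ratios of 0.40 and 0.42. Lef1, Notum and Tnfrsf19 were thus 5.40-fold, 4.01-fold and 5.16-fold lower, and Axin2, Znrf3 and Nkd1 had log2 ratios of -0.08, 0.04 and 0.09. Nkd1, Nkd2, Znrf3, Myc and Apcdd1 were named after their values were seen.

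Of the secreted inhibitors past the filter, listed with the Dickkopf receptor genes Kremen1 and Kremen2, 6 of 8 were outside 2-fold. That share was 15.4% over all probes past the filter. By the larger of the 2 values it was 35.4% at 0.25 to 1 RPKM, 20.9% at 1 to 2 RPKM and 10.9% at 2 to 5 RPKM. Nothing is read from these shares, since the list was chosen with earlier results of these data known. The 6 genes fell to 5 when 0.1 was added to each RPKM, to 2 when 1 was added, and to 3 at a threshold of 3-fold. In G34R cells 4 were lower, namely Sfrp4 (1.93 and 0.32 RPKM, log2 ratio -2.59), Sfrp5 (1.01 and 0.23 RPKM), Notum and Dkk3 (1.29 and 0.46 RPKM), Notum being counted in both lists. Sfrp1, a secreted Frizzled-related protein, was higher (5.24 and 11.16 RPKM, log2 ratio 1.09), as was the Dickkopf receptor gene Kremen2 (0.23 and 0.52 RPKM). Dkk1, the classic inhibitor in the anterior embryo, had 0.08 and 0.12 RPKM. The median log2 ratio was -0.84.

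**Figure D4:**
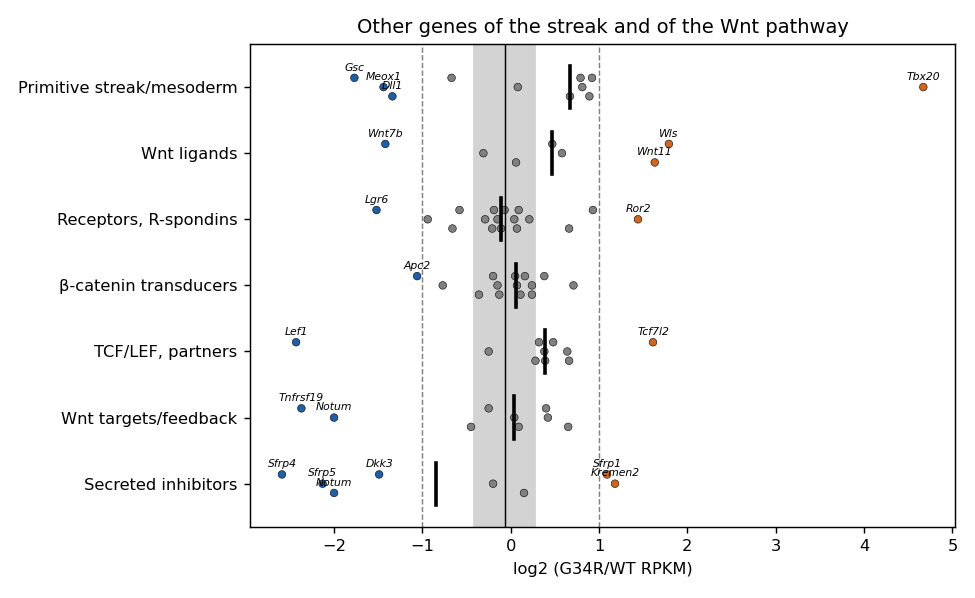
log2 (G34R/WT RPKM) of the genes past the filter in 7 lists, 1 point per gene, with genes more than 2-fold higher in orange, more than 2-fold lower in blue and the others in grey. Thick bars are list medians, the thin line is the median of all probes past the filter (-0.0665) and the grey band their middle 50%. Most transducers lie near 0, and Lef1, Notum, Tnfrsf19, Sfrp4 and Sfrp5 lie at or below -2.

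Eomes and Cdx2 are also trophoblast genes and some listed genes mark other cell types, so markers of those cells are given beside them. The shares over all probes past the filter were again 5.79% more than 2-fold higher and 9.64% more than 2-fold lower. Of 12 trophectoderm markers 8 passed the filter, 2 more than 2-fold higher (Tead4, 2.60 and 7.51 RPKM, and Esx1, 0.48 and 1.04 RPKM) and 2 lower (Ascl2, 3.18 and 1.16 RPKM, and Plac1, 0.32 and 0.03 RPKM). The highest of this list, Krt18 (8.94 and 5.22 RPKM) and Krt8 (8.40 and 4.37 RPKM), were lower in G34R cells but within 2-fold. Of the 8 past the filter, 4 had a higher and 4 a lower value in G34R cells. Under the filter, the defining trophoblast factor Elf5 was 0 and 0.02 RPKM, Gata3 0.09 and 0.16 RPKM and Krt7 0.23 and 0.07 RPKM. Primitive endoderm markers summed to 52.89 RPKM in WT against 86.28 RPKM in G34R, most of it from the matrix genes Sparc (31.72 and 53.36 RPKM) and Lama1 (11.56 and 20.26 RPKM), both within 2-fold. Of this list 8 of the 9 past the filter were higher in G34R cells, beside 44.5% of all probes past it. More than 2-fold higher were Gata6 (0.30 and 1.09 RPKM), Sox17 (0.18 and 0.56 RPKM) and Gata4 (0.50 and 1.18 RPKM). Hnf4a was more than 2-fold lower (0.56 and 0.06 RPKM). Sox17 passed the filter through G34R cells alone and Hnf4a through WT cells alone, and nothing is read from these counts. Among 7 neuroectoderm markers Olig2 had 0.03 and 17.71 RPKM and Tubb3 35.58 and 8.36 RPKM. Of 8 fibroblast markers only Thy1 passed the filter (1.18 and 0.71 RPKM), Col1a1 had 0.20 and 0.19 RPKM, and Dcn, Lum, Fap and Postn were at 0 in both libraries. Of the 13 ES cell markers 3 were more than 2-fold lower in G34R cells, Zfp42 (180.30 and 16.40 RPKM), Klf2 (36.12 and 9.34 RPKM) and Nanog (127.07 and 52.24 RPKM), and none was more than 2-fold higher. The part of these differences in the values of Eomes, Cdx1 and Lef1 was not tested.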

How the data were processed

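RNA from mouse ES cells of each line, WT and G34R, was sequenced as 1 library. The deposited values are RPKM per probe. The authors aligned stranded single-end reads to mm9 with STAR (2.4.2a, per the submitters' notes), imported primary alignments into Seqmonk, merged isoforms and corrected for transcript length. RPKM is relative to each library's total, so a change in abundant RNA moves all values.

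Merged exon lengths came from GENCODE M1 (mm9) for the 26023 probes with the same name and span. The read total was the one at which RPKM of single-transcript probes under 400 bp and under 1 RPKM fell on whole reads within the 2 decimals, as 100.0% of 121 (WT) and 101 (G34R) did. With it, low probes of several transcripts gave whole reads in 99.1% and 100.0% of cases on merged exons, against 56.4% and 63.2% on the longest transcript. Reads are therefore estimates, exact to within rounding.

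Ratios are log2 (G34R/WT RPKM) with values under 0.01 set to 0.01. Counting intervals are 95% exact conditional binomial (ratios) and Poisson (levels), widened for rounding. No test was made. Named genes were the 10 members, up to 4 of the largest differences past 2-fold and the 2 highest of each list, and the 2 nearest probes. Some other genes were named besides, after their values were seen. Members and lists were chosen with earlier results of these data known. Of the listed genes, 3 were matched by older symbols, and Sox1 was not analysed here. Alternatives were other pseudocounts, scalings, filters and folds. The scripts were tested on simulated data. Python 3.11.15, NumPy 2.4.6, pandas 2.3.3, SciPy 1.17.1 and matplotlib 3.10.9 were used.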

Additional observations from a re-analysis of the deposited data

How the results depend on the processing

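Adding 0.01 or 0.1 to each RPKM, rescaling to the same sum and centring on the median left 2 of the 10 genes more than 2-fold higher and 1 lower. Adding 1 to each RPKM left 1 higher and 0 lower, with 1.47% of all probes higher and 2.66% lower, and gave log2 ratios of 1.01 for Eomes, 0.79 for Cdx1 and -0.79 for Lef1, since 1 is as large as the values themselves. Without a filter 4 genes were higher, Mixl1 and Cdx2 being added. At least 5 RPKM left 0 genes in either direction because none reaches it, and 3.09% and 4.07% of probes. At least 1 RPKM gave 6.42% of probes lower. A threshold of 1.5-fold gave 2 genes lower, with Sp5 added, and 13.3% and 18.1% of probes, and 3-fold gave 2.48% and 5.39%. Of the single-gene and list values recomputed this way, 317 stayed within their counting interval (ratios), 1.5 times (counts) or 0.1 on the log2 scale (medians) and 97 did not. No sign of a member's ratio changed under any pseudocount or scaling tried. No paired analysis was possible because each group held 1 library, and for the same reason no replicate could be left out. Depth limits T, Evx1, Cdx2 and Wnt3, for which a ratio of 1 lay within the counting interval.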
